A study of Drosophila melanogaster with 2 samples.

Results

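Binding of the zinc finger protein Crooked legs (Crol) was examined over 6 genes of the Jun N-terminal kinase (JNK) pathway and its AP-1 transcription factor, namely misshapen (msn), hemipterous (hep), basket (bsk), Jun-related antigen (Jra), kayak (kay) and puckered (puc). The genes were taken by name, out of 18164 genes on 6 chromosome arms of the dm6 build. Every peak of the authors' conservative list was assigned to a gene when its summit lay between 2 kb upstream of the most distal transcription start site (TSS) and the end of the gene. By this rule 25 of the 9211 conservative peaks belonged to 4 of the 6 genes, with 9 at kay, 7 at puc, 6 at msn, 3 at hep and 0 at both bsk and Jra. Over all genes on the 6 arms, 26.6% had a conservative peak by the same rule. The median region was shorter over all genes (3656 bp) than over these 6 (16096 bp), and more peaks are expected in longer regions.

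Chromatin immunoprecipitation followed by sequencing was done on whole Drosophila melanogaster embryos aged 0 to 24 h, from a transgenic strain in which an insertion targeting crol gives a Crol-eGFP fusion protein. The pull-down is described with an anti-GFP antibody, while a separate label field names crol. Both libraries are biological replicates of 1 group, made from chromatin sonicated to 200 to 800 bp, and no second condition was compared. Whole embryos of all ages in this span mix every tissue and stage, so a peak cannot be placed in a cell type or stage. Peak height is the authors' deposited signal, with no scaling stated and no read counts given here, so depth is unknown. Heights were compared only within 1 list.

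In the JNK cascade of the fly, the kinase Msn acts upstream of MAP kinase kinase kinases, which activate the kinase Hep, and Hep in turn phosphorylates Bsk, the fly JNK. Bsk acts on Jra (Jun) and Kay (Fos), the partners that form the AP-1 dimer on DNA, and puc, a target of the pathway, encodes a phosphatase that switches Bsk off again. In the embryo the cascade is best known for dorsal closure, when the lateral epidermal sheets move over the amnioserosa and fuse.

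The sequences at the strongest peaks of each bound gene are shown because the heights and positions reported for these genes rest mainly on them. Each is the plus strand of dm6 from the RefSeq copy of the assembly, written 5′ to 3′ and centred on the summit, with 101 bases shown where no annotated untranslated region (UTR) is touched and 30 bases where one is. Capitals mark GGGGG or GAGAG on either strand, so that CCCCC and CTCTC are capitals too. Transcription of kay and puc runs along the printed strand, and that of msn and hep against it.
kay, peak of signal 923 (chr3R:29773124-29773153): CCCCCgcccctacgccccacgcccactagt
kay, peak of signal 515 (chr3R:29771863-29771963): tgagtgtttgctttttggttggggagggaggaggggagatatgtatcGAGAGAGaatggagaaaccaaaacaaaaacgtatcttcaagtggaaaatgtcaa
puc, peak of signal 607 (chr3R:8110516-8110616): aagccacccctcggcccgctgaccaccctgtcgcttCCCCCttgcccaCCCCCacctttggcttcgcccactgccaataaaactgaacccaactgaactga
puc, peak of signal 347 (chr3R:8114461-8114561): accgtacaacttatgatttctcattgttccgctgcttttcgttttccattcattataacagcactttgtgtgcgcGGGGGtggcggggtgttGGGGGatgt
msn, peak of signal 629 (chr3L:2584691-2584791): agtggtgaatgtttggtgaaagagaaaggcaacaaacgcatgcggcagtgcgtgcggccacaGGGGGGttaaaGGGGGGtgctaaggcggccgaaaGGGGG
msn, peak of signal 521 (chr3L:2581667-2581767): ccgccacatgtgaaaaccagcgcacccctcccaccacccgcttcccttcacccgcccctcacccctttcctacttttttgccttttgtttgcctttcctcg
hep, peak of signal 371 (chrX:13088430-13088530): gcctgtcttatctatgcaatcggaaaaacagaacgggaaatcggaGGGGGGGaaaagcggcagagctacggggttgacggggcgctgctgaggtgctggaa
hep, peak of signal 209 (chrX:13089963-13089992): ttttgctgtgcgccctgtttgttttgtcgc
Runs of 5 or more G or C in capitals stood in 5 of the 8 windows as printed. The second msn window, rich in C, held no run of that length. The second hep peak had one 40 bp from its summit, outside the 30 bases printed. Over all conservative peaks, 53.1% had such a run within 50 bp of the summit. The AP-1 site TGANTCA was in none of them.

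The genes are taken in the order of the AP-1 factors, the feedback phosphatase and the kinases. Of the AP-1 partners, kay had 9 peaks and Jra 0, but their regions differed in length, 30119 bp against 4077 bp. From length, 2.07 and 0.28 peaks were expected. The gene kay, which encodes the Fos partner (FBgn0001297, 3R 29765995 to 29794113, plus strand), held 9 conservative peaks with signals from 70.0 to 923. Its strongest peak (3R 29772740 to 29773325) had a signal of 923, rank 117 of 9211, and heights of 412 in replicate 1 and 483 in replicate 2. Both replicates placed it high. Its summit lay 246 bp downstream of the internal TSS shared by kay-RA and kay-RG, in their 5′ UTR, and within intron 1 of the longer transcript kay-RD. A second peak (3R 29771739 to 29772035) lay 979 bp upstream of the same TSS with a signal of 515, and measured 372 in replicate 1 against 133 in replicate 2. The replicates were thus close for the first peak and 2.80 times apart for the second. The pair stood well above the other 7 kay peaks, whose signals ran from 70.0 to 159.

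Of those 7 kay peaks, 6 lay downstream of the strong pair along the gene, between 8865 bp and 20209 bp from the distal start of the gene. One of them, with a signal of 132, was 850 bp upstream of the start of kay-RB and fell in a coding exon of kay-RG. The remaining one, with a signal of 70.0 (32.2 in replicate 1 and 40.4 in replicate 2), was 1825 bp upstream of the distal start and was in neither replicate's own thresholded list. The 3 other starts of kay had no conservative peak within 500 bp. The joint ranked list, which holds peaks before the reproducibility threshold, had a peak of 64.1 at 54 bp from the kay-RB start. Nearest to the starts of kay-RD and kay-RF it had peaks of 7.47 and 7.99. A higher ranked peak of 54.9 (29.6 in replicate 1 and 25 in replicate 2, score 740) lay 540 bp upstream of the kay-RD start. The strong signal at kay thus lay at 1 of its 4 annotated starts. Of the 9 conservative peaks, 2 lay in the region of lncRNA:CR46110 and 1 in that of fig, genes that lie within kay.

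**Figure D1:**
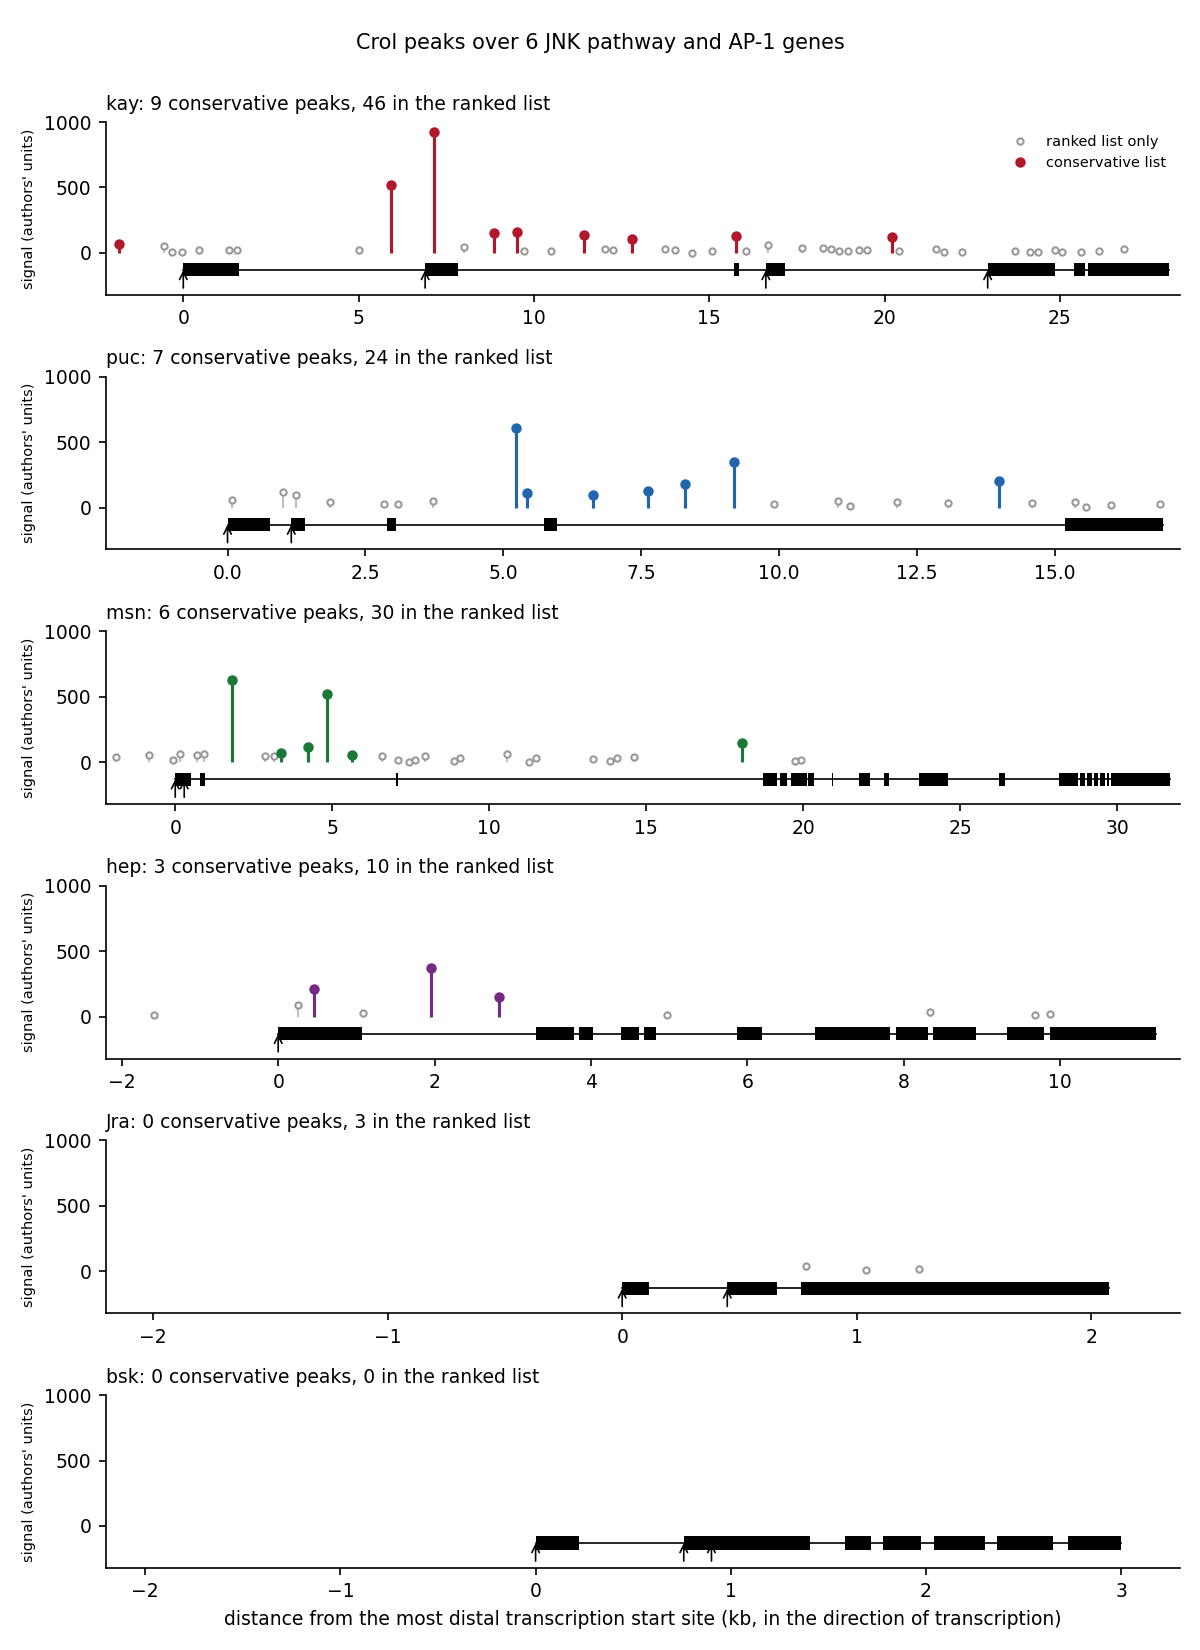
Peak signals (authors' units, vertical axis) along the 6 genes by distance from the most distal TSS in kb, in the direction of transcription. Filled points are conservative peaks, open grey points are peaks found only in the ranked list, black boxes are exons of any transcript and arrows are annotated starts. The highest kay peak (923) stands at an internal start, the 607 peak of puc and the 629 peak of msn stand inside introns, and bsk has no point at all.

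Jra, which encodes the Jun partner (FBgn0001291, 2R 10096480 to 10098556, plus strand), had 0 conservative peaks, where 0.28 were expected from its region of 4077 bp. Its strongest ranked peak had a signal of 40.5, with 32.1 in replicate 1 and 11.2 in replicate 2, and lay 337 bp downstream of the start of Jra-RA in the 5′ UTR. Its score was 101, below the minimum of 830 in the conservative list. The other 2 ranked peaks measured 10.4 and 14.9. The nearest conservative peak was 3239 bp past the end of Jra with a signal of 608, and the start closest to that peak was the one of 14-3-3zeta, 759 bp away. With so short a region, a count of 0 at Jra was below expectation by less than 1 peak.

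At puc, the phosphatase gene (FBgn0243512, 3R 8105332 to 8122294, plus strand), 7 conservative peaks had signals from 98.5 to 607. The strongest (3R 8110379 to 8110848) measured 329 in replicate 1 and 263 in replicate 2, lay in intron 2, and was 4078 bp from the nearest puc start. The next (3R 8114388 to 8114692, signal 347) measured 200 and 142 in the same order and lay in intron 3. All 7 peaks were in these 2 introns of both transcripts, 2 in intron 2 and 5 in intron 3, and replicate 1 was the higher in each of the 7, by 1.20 to 1.68 times. A weaker peak of 109 shared the interval of the strongest, with its summit 203 bp further on, so these count as 2 summits in 1 interval. In intron 3, 3 of the 5 peaks were also in the region of lncRNA:CR44331, a non-coding gene inside puc.

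No conservative peak lay within 500 bp of either puc start. The joint ranked list did have peaks there. One (3R 8106363 to 8106772), 80 bp downstream of the puc-RB start, had a signal of 97.8 with 45.1 in replicate 1 and 44.8 in replicate 2, and the highest score possible, 1000. It was in neither the conservative nor the optimal list. Of the 9391 ranked peaks at or above a score of 830, 180 were likewise missing from the conservative list, and the cause was not tested. A neighbour 154 bp upstream of the same start had a signal of 116 but a score of 774, with 80.5 in replicate 1 and 27.5 in replicate 2. The puc-RA start had a ranked peak of 57.3. Both puc starts thus had peaks in the ranked list and none in the conservative and optimal lists.

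At msn, which encodes the most upstream kinase of the 6 (FBgn0010909, 3L 2554847 to 2586540, minus strand), 6 conservative peaks ran from 54.9 to 629. The strongest (3L 2584404 to 2584917) measured 366 in replicate 1 and 256 in replicate 2, and its summit was 1513 bp downstream of the nearest start. The second (3L 2581565 to 2581890, signal 521) measured 339 and 176. Both lay in intron 2, a stretch of 6084 bp that held 5 of the 6 peaks, or 8.22 per 10 kb. The sixth, with a signal of 147, stood alone in intron 3, 18051 bp from the distal start, and was 2.55 times higher in replicate 1 (106) than in replicate 2 (41.6). The third intron held 0.859 conservative peaks per 10 kb over 11640 bp. Near the msn starts the ranked list had a peak of 60.1 (37.3 in replicate 1, 25.2 in replicate 2) with a score of 779, absent from the conservative list. The optimal list had a peak within 500 bp of an msn start, but whether it was this one was not checked.

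The gene hep, for the kinase that activates Bsk (FBgn0010303, X 13079205 to 13090434, minus strand), held 3 conservative peaks, all within 2825 bp of its single start. The strongest (X 13088350 to 13088603, signal 371) measured 215 in replicate 1 and 154 in replicate 2 and lay in intron 1. The second, 457 bp downstream of the start in the 5′ UTR, had a signal of 209 with 114 and 98.7. The third, also in intron 1, had a signal of 152 with 75.7 and 75.3. These 3 were in both replicates' own thresholded lists. Of the 4 bound genes, only hep, with the fewest peaks, had every peak in both. The peak in the 5′ UTR also lay in the 2 kb upstream of the neighbouring gene licorne (lic), a p38 kinase kinase, so it cannot be assigned to hep alone.

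The JNK gene bsk itself (FBgn0000229, 2L 10247502 to 10250501, minus strand) had 0 conservative and 0 ranked peaks, where 0.344 and 3.25 were expected from its region of 5000 bp. Of all genes on the 6 arms, 25.7% had no ranked peak either. The nearest joint ranked peak was 38908 bp past the end of the gene with a signal of 11.7, and the nearest conservative one 40899 bp with a signal of 63.3, close to the start of Snx17. The gene lay in a stretch of 163478 bp on 2L without any joint ranked summit, beside a median of 709 bp between neighbouring summits, and 42 stretches on the 6 arms were at least that long. This stretch covered 56 genes, 53 of them protein-coding. In the ranked list of replicate 1 alone it held 39 summits, the nearest 26120 bp from bsk, and in that of replicate 2 it held 0. The cause of this difference between the replicates' lists was not tested.

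Promoter peaks, with a summit within 500 bp of any start of the gene, were found at kay and hep, 2 of the 6 genes, where 14.1% of all genes had one. Of the 25 conservative peaks, 23 lay in an intron of at least 1 transcript and 3 touched an exon or UTR of some transcript. Of all conservative peaks that lay in some gene's region, 72.5% were in an intron of that gene, and introns made up 73.3% of the bases in the regions of kay, puc, msn and hep. Among the 25, 20 were more than 500 bp from the start of any gene, beside 72.5% of the whole list. For 12 of the 25 the closest start was that of another gene, beside 38.1% of all pairs of a conservative peak and a gene whose region held it. The region of another gene also took in 7 of the 25, and 18 fell in the region of the JNK or AP-1 gene alone. No test of these counts was made, and nothing particular to the 6 genes is read from them.

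The number of peaks was compared with the number expected from the region's length at the rate of the 6 arms, by a one-sided exact Poisson test with Benjamini-Hochberg adjustment over 18164 genes. The call was made for 132 genes, 0.727% of those tested, and for 1 of the 6 genes, kay. For kay 9 peaks stood against 2.07 expected, 4.34 times as many (exact Poisson test, Benjamini-Hochberg adjusted p = 0.0435). For puc 7 peaks stood against 1.30, 5.37 times as many, and narrowly missed the threshold (exact Poisson test, Benjamini-Hochberg adjusted p = 0.0547). The ratio was therefore larger at puc than at kay, though the call went to kay. With repeated intervals counted once, puc had 6 peaks against 1.30 (exact Poisson test, Benjamini-Hochberg adjusted p = 0.164). For msn 6 against 2.32 (exact Poisson test, Benjamini-Hochberg adjusted p = 0.673) and for hep 3 against 0.91 (exact Poisson test, Benjamini-Hochberg adjusted p = 1) did not pass.

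Both kay and puc stood near the threshold and changed sides with the list used. In the list of replicate 1 alone the exact Poisson test with Benjamini-Hochberg adjustment gave p = 0.0533 for kay (8 peaks) and p = 0.0246 for puc (7 peaks), and in that of replicate 2 alone p = 0.267 for kay (6 peaks) and p = 0.0434 for puc (6 peaks). Peaks cluster along the genome, and with a negative binomial model that allows for this 0 of the 18164 genes were called, with 547 at an unadjusted p under 0.05. These p-values describe the peak lists, not a spread between embryo collections.

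**Figure D2:**
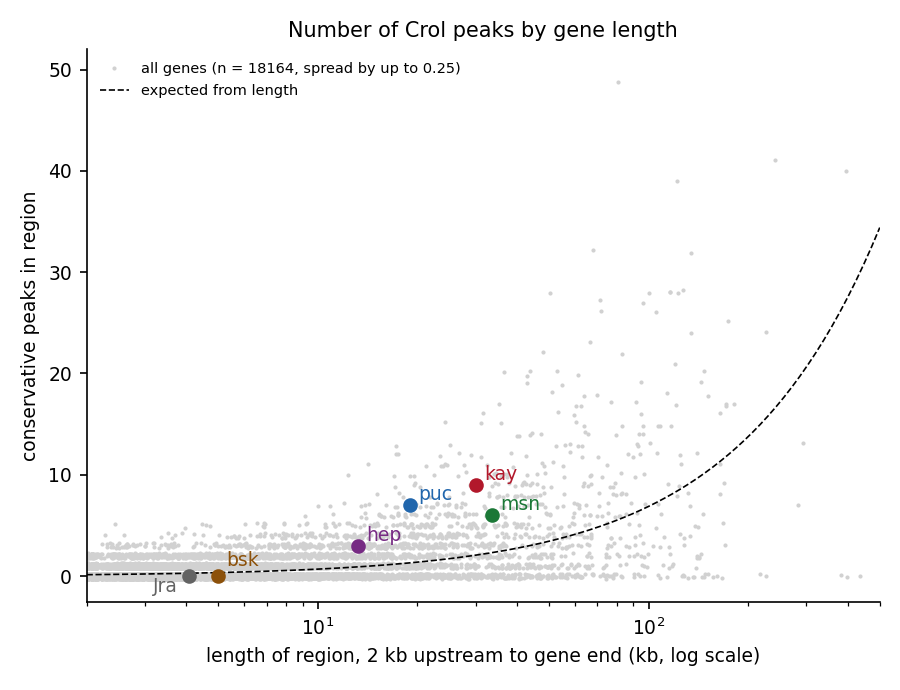
Conservative peaks in each gene's region (vertical axis) against the length of the region in kb (log scale). Grey points are all 18164 genes, spread slightly in height so that they can be seen, the dashed line is the number expected from length, and 2 genes longer than 500 kb lie beyond the axis. The points for kay (9), puc (7), msn (6) and hep (3) lie above the line, as do many other genes, and Jra and bsk lie at 0.

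By signal, 19 of the 25 peaks were at or above the median of the conservative list, 113, and their own median was 152. Above the list's upper quartile of 191 stood 9 of them, at all 4 bound genes, and below its lower quartile of 78.6 stood 3, of which 1 was at kay and 2 were at msn. Each bound gene thus had at least 2 peaks above the upper quartile. The median signal was 139 at kay, 178 at puc, 131 at msn and 209 at hep. Summed over the gene the order was different, with 2317 at kay, 1665 at puc, 1535 at msn and 732 at hep. The peaks of kay were spread over 22034 bp, those of msn over 16252 bp, those of puc over 8751 bp and those of hep over 2368 bp.

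Replicate 1 was higher than replicate 2 at 22 of the 25 peaks, and over all conservative peaks it was higher at 74.1%. The ratio of replicate 1 to replicate 2 had a median of 1.40 over the 25 and 1.21 over the whole list, where the quartiles were 0.991 and 1.46. At msn replicate 1 was the higher at all 6 peaks, with a median ratio of 1.88. At kay the median ratio was 1.07, and all 3 peaks with replicate 2 higher were kay peaks, the one of 923 among them. Ratios above the 95th percentile of the list, 1.96, were found at 4 peaks, 2 at kay and 2 at msn. With no scaling stated for either column, an absolute difference between replicates cannot be read from these ratios.

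Of the 25, 23 were in replicate 1's own thresholded list, 19 in that of replicate 2 and 18 in both. The shares over all conservative peaks were not computed, so nothing particular to these genes is read from the counts. The 7 not in both were 3 at kay, 1 at puc and 3 at msn. The peak of 54.9 at msn was in the list of replicate 2 only, and the peak of 70.0 at kay was in neither.

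**Figure D3:**
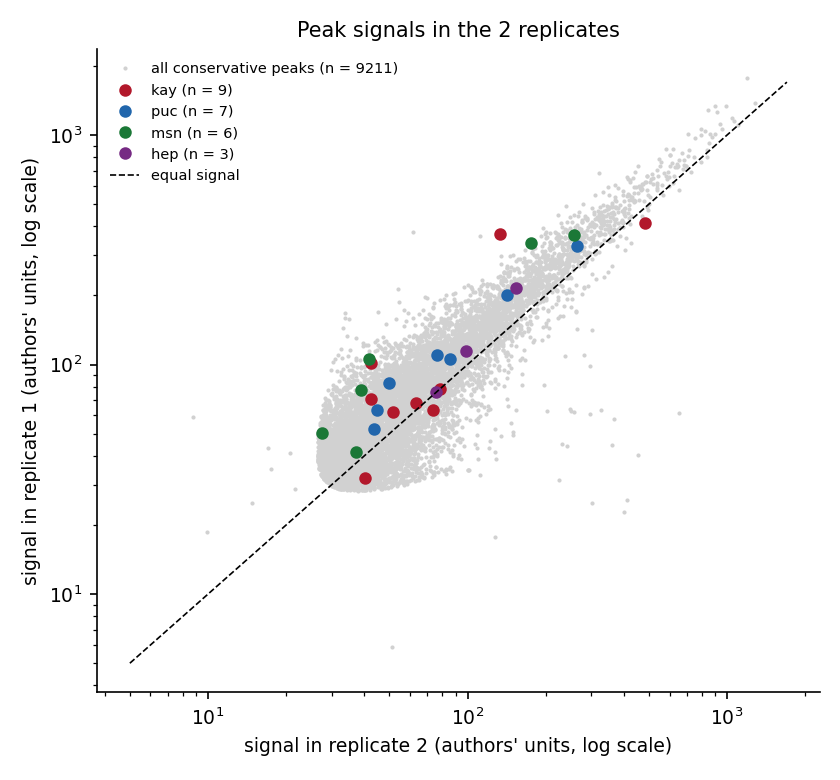
Signal of each conservative peak in replicate 1 (vertical axis) and replicate 2 (horizontal axis), both in the authors' units on log scales. Coloured points are the 25 peaks of kay, puc, msn and hep, grey points are all 9211 peaks and the dashed line marks equal signal. Most coloured points lie above the line, as 74.1% of the grey ones do, and the 2.80-fold gap of the second kay peak (372 against 133) stands out.

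Short motifs were searched on both strands within 50 bp of each summit, and in flanking windows of the same length centred 300 bp to either side. The AP-1 site TGANTCA was found at 0 of the 25 summits, at 1.40% of all conservative summits and in 2.35% of flanks. The related site TGACGTCA was found at 0 of 25, at 0.206% of all summits and in 0.206% of flanks. The motif CAGGTAG, bound by the zygotic activator Zelda, was found at 0 of 25, at 0.543% of all and in 0.516% of flanks. With shares this low over the whole list, a count of 0 of 25 cannot be told apart from the list.

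GGGGG was found at 13 of 25 summits, at 53.1% of all conservative summits and in 9.81% of flanks. It was near 6 of the 9 kay summits, 3 of the 6 at msn, 2 of the 3 at hep and 2 of the 7 at puc. GAGAG, the core of the GAGA factor's site, was found at 7 of 25 summits, at 25.9% of all summits and in 13.4% of flanks, and those 7 were 5 at kay and 2 at msn. Within 50 bp both counts lay close to the shares of the whole list. Within 100 bp this held for GGGGG, at 17 of 25 beside 64.4% of all summits, but not for GAGAG, at 17 of 25 (68%) beside 41% of all summits and 24.8% of flanks. TGANTCA was then at 2 of 25, beside 3.26% of all summits and 4.36% of flanks. The comparison for GAGAG thus depended on the window, and it was not tested. The GC content of the windows at the 25 summits had a median of 51.5%, from 36.6% to 71.3%, beside 53.5% over the list.

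The rest of the pathway was described by lists of related genes. Of 26 genes listed as upstream in the pathway or as regulating it (the upstream list), 20 had a conservative peak, beside 26.6% of all genes. A promoter peak was found at 13, beside 14.1%, and 1 passed the Poisson threshold, beside 0.727%. That gene was Src64B, a Src family kinase, with 10 peaks against 2.46 expected (exact Poisson test, Benjamini-Hochberg adjusted p = 0.0369). The strongest peaks were 1072 at raw, a negative regulator of the pathway in dorsal closure, 568 at Rac2, a small GTPase, 539 at Cka, a scaffold protein, and 476 at Uev1A, a ubiquitin conjugation factor. The 6 without a peak were grnd, a receptor for the ligand Eiger, and Traf6, Ask1, Rac1, Shark and CYLD. The ligand gene egr had 2 peaks, the strongest 90.5, and the kinase kinase kinase genes Tak1 and slpr had 2 each, with strongest signals of 288 and 95.2.

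Of 21 genes listed as responding to JNK signalling (the response list), 15 had a peak, beside 26.6% of all genes. Their response was not measured here. A promoter peak was found at 6, beside 14.1%, and 1 passed the threshold, beside 0.727%. That one was Atf3, a bZIP transcription factor, with 10 peaks against 2.38 (exact Poisson test, Benjamini-Hochberg adjusted p = 0.0295). The strongest signals were 1419 at the promoter of GstD1, a glutathione transferase gene, 925 at upd3, a cytokine gene, 481 at the promoter of Mmp1, a matrix metalloproteinase gene, and 440 at dpp, the BMP ligand gene that the leading edge expresses in dorsal closure. No conservative peak was assigned to Ilp8, Gadd45, Pvf1, Timp, ple or Ddc. The peak at GstD1 was thus higher than any of the 25 at the 6 pathway genes.

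Among 16 other genes for bZIP factors, the structural class of Jra and Kay, 11 had a peak, beside 26.6% of all genes. Promoter peaks were found at 10, beside 14.1%, and 3 passed, beside 0.727%. These 3 were vri with 11 peaks, Pdp1 with 13 and Atf3 again, which stands in both lists (exact Poisson test, Benjamini-Hochberg adjusted p = 0.00055, 0.0383 and 0.0295). The highest signals were 1540 at CrebB, 985 at Pdp1, 958 at vri and 701 at cnc. Those without a peak were Atf-2, Atf6, crc, maf-S and REPTOR-BP. From region length, 0.185 (maf-S) to 0.827 (Atf6) peaks were expected at these genes. Each count of 0 was thus below expectation by less than 1 peak.

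Of 12 genes of the other MAP kinase cascades, 6 had a peak, beside 26.6% of all genes. Promoter peaks were found at 2, beside 14.1%, and 2 passed, beside 0.727%. Raf, the kinase at the top of the ERK cascade, had 28 peaks against 3.47, and nmo, a Nemo-like kinase gene, had 17 against 5.30 (exact Poisson test, Benjamini-Hochberg adjusted p = 9.30e-13 and 0.00875). The strongest peaks were 802 at Dsor1, the MAP kinase kinase of that cascade, 659 at Raf, 485 at Mkp3, a phosphatase gene, and 470 at nmo. The genes for the terminal kinases p38a, p38b, p38c, rl and Erk7, and the phosphatase gene Mkp, had 0 conservative peaks. From region length, 0.219 (p38c) to 0.573 (Erk7) peaks were expected at these genes, except for rl with 3.88. At rl there was no ranked peak either. It lay in a stretch of 234 kb without a ranked summit, and the expected number does not allow for such stretches. The JNK gene bsk also had no conservative peak, as did 13340 of all 18164 genes. Median peaks per gene were 4.5 for the 6 pathway genes, 2 for the upstream list, 1 for the response list, 1.5 for the bZIP list and 0.5 for the other MAP kinase genes, beside 0 over all genes. Median regions were 16096, 7235, 10904, 8077, 6582 and 3656 bp in the same order, and no test was made of any list.

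**Figure D4:**
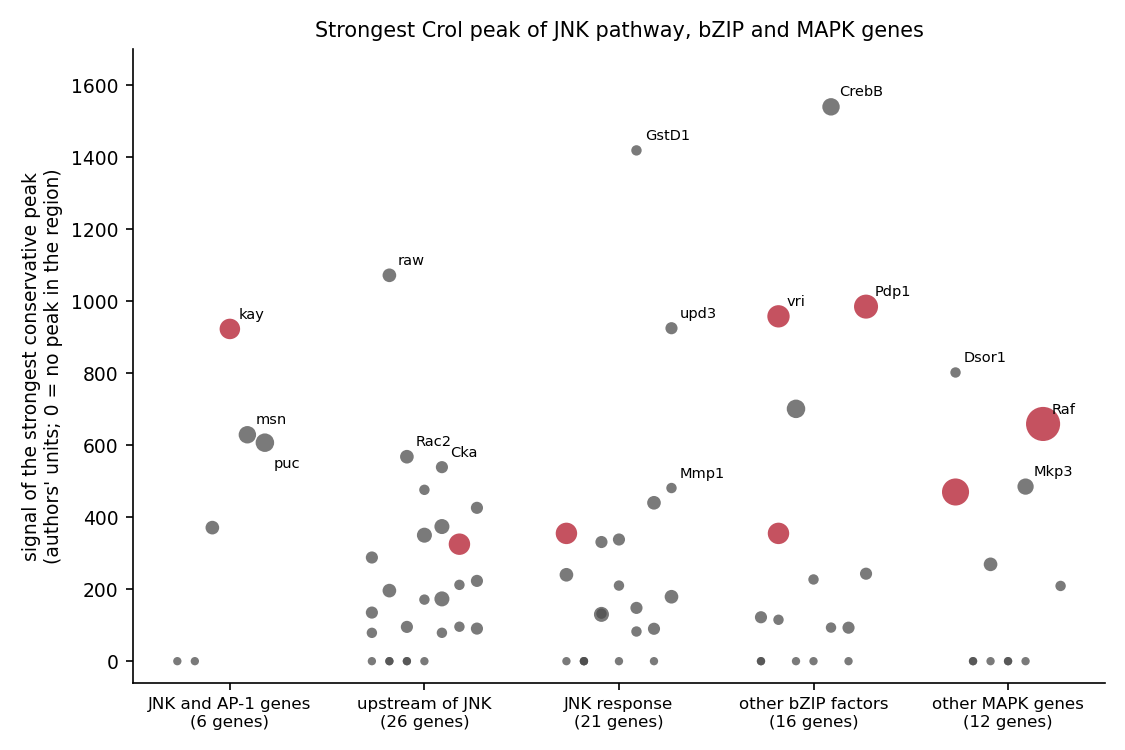
Signal of the strongest conservative peak of each gene (authors' units, vertical axis) in 5 lists, with 0 for genes without a peak. Each point is a gene, its area grows with the gene's number of peaks, and red marks genes with more peaks than expected from length (exact Poisson test, adjusted over all genes). The 4 bound JNK and AP-1 genes lie between 371 and 923, below raw, GstD1, upd3, CrebB, Pdp1 and vri.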

How the data were processed

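Peak lists were available from 2 biological replicates of 1 group. Per the file notes, the authors made them on dm6 and ordered peaks by irreproducible discovery rate (IDR). No source used here gives the aligner or the peak caller. The conservative list (9211 peaks), optimal list (10061 on the 6 arms), thresholded lists of replicate 1 (7813) and replicate 2 (6138) and the joint ranked list (87125) were used. The deposited signal of a peak is its height, with no scaling stated, and the deposited score is a rescaled IDR, with a minimum of 830 and a maximum of 1000 in the conservative list. The 2 replicate columns of the ranked list were matched by identical records: the first had 57918 records identical to replicate 1's ranked list and 0 to replicate 2's, and the second had 43806 identical to replicate 2's and 0 to replicate 1's. Of per-sample value columns, 0 were left unused for lack of a sample.

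Genes came from Ensembl release 115 and sequences from RefSeq on the same assembly. The expected number of peaks was region length times the rate over the 133880608 bases of the 6 arms, long stretches without a ranked summit included. The one-sided exact Poisson p was Benjamini-Hochberg adjusted over all genes, with a threshold of 0.05, and the function was tested on simulated data. Computations used Python 3.11.15, numpy 2.4.6, pandas 2.3.3, scipy 1.17.1 and matplotlib 3.10.9. Alternatives were other peak lists, regions, windows, a negative binomial model and other motif windows. All 6 genes were named with every peak, and from each other list up to 4 genes with the strongest peak, with all genes of a set of 4 or fewer. Genes past the Poisson threshold, genes without a peak, egr, Tak1 and slpr were named in addition, after their values were seen. The genes and lists were chosen with earlier results of these data known.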

Additional observations from a re-analysis of the deposited data

How the results depend on the processing

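No paired analysis was possible because there was 1 group and no comparison between groups. Beside 0.501% to 1.52% of all genes, 1 of the 6 genes passed the Poisson threshold in most settings. It was kay with the optimal list, with peaks at or above the median signal and with repeated intervals counted once, and puc with either replicate's list alone (1 in each) and with other regions. With the negative binomial model (dispersion 1.16) 0 of 6 passed, as did 0 of 18164 genes. There 547 genes were at an unadjusted p under 0.05, beside 1011 with the Poisson test. With ranked peaks past the same score 2 of 6 passed, beside 0.787% of all genes. A region from 5 kb upstream to 5 kb downstream called 277 genes beside 132, and gave Jra 2 peaks against 0.831 expected (exact Poisson test, Benjamini-Hochberg adjusted p = 1). For kay the call was lost without the 2 kb upstream (exact Poisson test, Benjamini-Hochberg adjusted p = 0.108) and in the 5 kb region (0.069), where puc passed (0.0411 and 0.0466).

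Genes with a promoter peak numbered 1 in a 250 bp window, which left out hep, beside 9.82% of all genes. They numbered 3 with the optimal list, beside 15%, and 3 with replicate 1's list, beside 12.2%, both of which added msn. With replicate 2's list there were 2, beside 10.7%. Genes with any peak numbered 4 in every setting but the 5 kb region, where there were 5. The share of all genes with any peak was computed only for the main setting. Within 100 bp of the summit TGANTCA was at 2 of 25 peaks, beside 3.26% of the list, and GAGAG at 17 (68%), beside 41%. Over the whole list GAGAG rose from 25.9% to 41% with the wider window, and at the 25 peaks from 28% to 68%. The percentile of the strongest peak was 98.7 at kay, 90.6 at hep, 96.5 at puc and 96.7 at msn. In the lists of single replicates it was 97.3 to 98.7, 84.6 to 89.4, 94.5 to 95.4 and 94.1 to 96.4. The cause of the other changes was not tested. Depth limits every count of 0, and read counts were not used here.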

Other observations

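Of the listed genes 8 had 0 peaks in the joint ranked list, beside 25.7% of all genes. Of these, bsk, CYLD, a deubiquitinase gene of the upstream list, and REPTOR-BP, a bZIP gene, lie in the same stretch of 163 kb without a ranked summit. The genes crc, rl and Atf6 lie in stretches of 292 kb, 234 kb and 180 kb, and ple and Ilp8 in stretches of 22.2 kb and 16.3 kb. These genes were chosen after their values were seen. The share of the listed genes was not computed, so nothing particular to them is read from the count of 8.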
